A study of Mus musculus with 12 samples.

Results

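Immediate early genes, which are among the first transcribed when a cell is stimulated, were followed through RNA-seq of mouse iNKT1 cells, the type 1 subset of invariant natural killer T cells, with and without the transcription factor gene Ets1. They were 3 FOS subunits (Fos, Fosb, Fosl2) and 3 JUN subunits (Jun, Junb, Jund) of the transcription factor AP-1, 3 early growth response factors (Egr1, Egr2, Egr3) and the phosphatase gene Dusp1. The 10 genes were chosen by name, with earlier results of these data known. All 10 were found among the 14004 genes of the deposited table, 9 of them (all but Fosb) high enough to be tested with 13058 genes in all. Cells that bound CD1d tetramer and carried a YFP reporter were sorted from 2 tissues. The 4 groups, of 3 libraries each, were cKO thymus, control thymus, cKO liver and control liver. Cells of cKO mice carried Tbx21Cre, the Rosa26-YFP reporter and the floxed allele Ets1F/F; control cells carried Tbx21Cre and Rosa26-YFP without the floxed allele, so the Cre and the reporter are common to all groups. The Cre follows Tbx21, the gene of the transcription factor T-bet, and it both deletes Ets1 and switches on YFP, which limits the deletion and the sort to cells that have used Tbx21. The labels give no age or sex, and they call the replicates independent without saying that each came from its own mouse, so p-values measure the spread between these libraries.

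AP-1 is a dimer. FOS proteins pair with JUN proteins, JUN proteins also pair with each other, and the dimer binds short DNA elements in cytokine and effector genes of T cells. After antigen receptor, stress or growth factor signals, MAP kinases act on transcription factors already present, and genes such as Fos, Jun and Egr1 are transcribed within minutes without new protein synthesis, while DUSP1 removes phosphate from MAP kinases and so closes the loop. In thymic iNKT development EGR2 is known to be required downstream of the antigen receptor.

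The depth, given by the reads recovered from the deposited values, was 18487125 to 43435576 reads in 10 libraries, with 3205397 in cKO liver 2 and 3867333 in control liver 3. Values are the deposited ones, adjusted for library size, in which 0 reads can be listed slightly above 0. A limit of 3 reads was worth 1.84 to 3.76 units in the 10 deeper libraries, 20.0 in cKO liver 2 and 18.2 in control liver 3, and covers counting error only. Ets1 itself stood at 11817, 7069 and 5788 in cKO thymus, against 23692, 28051 and 19493 in control thymus. It stood at 3594, 4425 and 5787 in cKO liver, against 18773, 18528 and 15910.2 in control liver. The cKO libraries were the lower ones in both tissues without overlap, and reads remained in all of them. All 16 T cell and iNKT1 markers looked up, such as Cd3e and Tbx21, were in the table, with 0.533% to 0.998% of all values per library.

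Per kilobase of exon the members spanned a wide range of levels. The mean over the 12 libraries was 714 per kb for Egr1, 305 for Dusp1, 231 for Egr2, 104 for Fosl2, 89.1 for Jund, 74.8 for Junb, 32.8 for Jun, 31.7 for Egr3, 7.44 for Fos and 1.10 for Fosb, beside 106 for the median of 13359 named genes. Egr1 had the highest mean over the 12 libraries, above 91.7% of the named genes, and exceeded the next, Dusp1, in 10 of 12 libraries. Both exceptions were in control thymus, libraries 1 and 3, and by group mean Dusp1 was the higher there, at 458 per kb with 415 for Egr1. Jun lay below Egr3 in thymus, with 3.11 beside 20.1 per kb in cKO thymus and 0.787 beside 40.9 in control thymus. From Dusp1 to Jun each gene exceeded its lower neighbour in 6 to 8 of 12 libraries, so those neighbours were not separated beyond the spread. Fos, the gene most associated with immediate early induction, was above only 9.56% of named genes, and Fosb above 1.41%. Jund had the highest mean level per kb of the JUN genes, though it exceeded Junb in 7 of 12 libraries only.

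**Figure D1:**
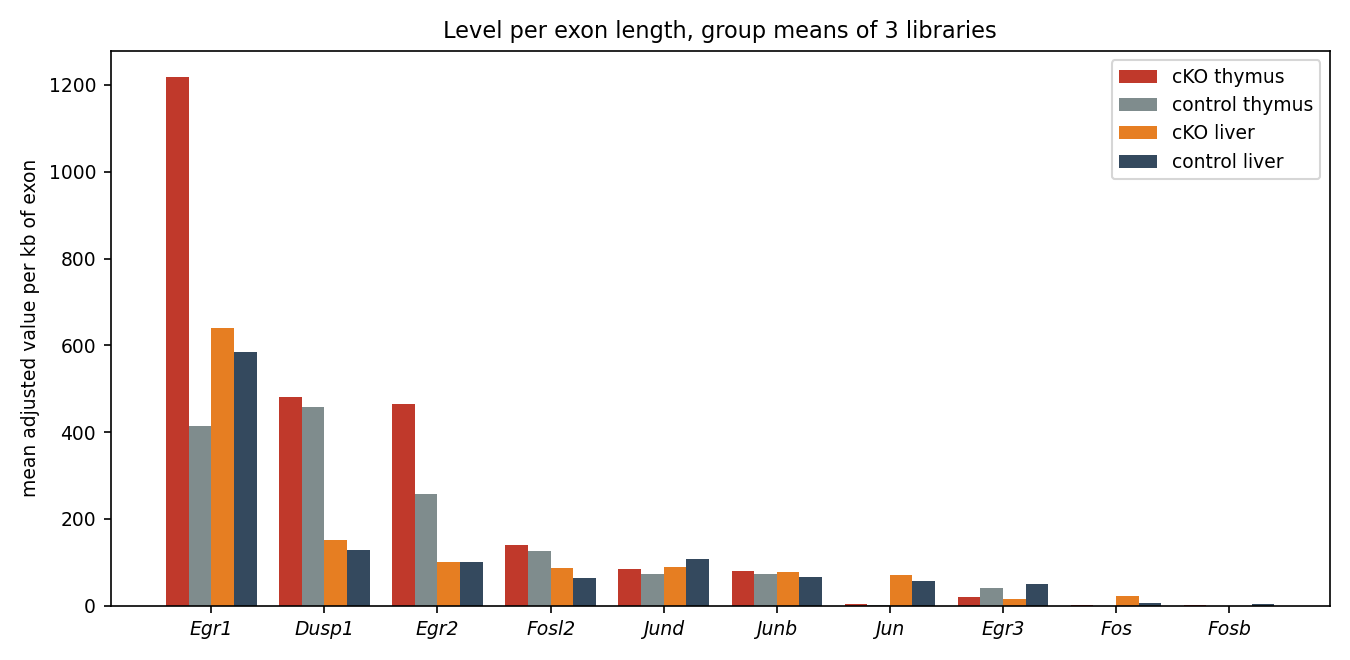
Mean deposited value per kilobase of exon (linear axis) of the 10 genes, as bars for cKO thymus, control thymus, cKO liver and control liver, each the mean of 3 libraries without error bars. Egr1 in cKO thymus is the tallest bar at 1218 per kb, and the Jun bars are 3.11 per kb in cKO thymus and 0.787 in control thymus, with 69.8 in cKO liver and 57.5 in control liver.

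Fos (chr12:85473890-85477273 in GRCm38, plus strand) encodes the subunit that gives AP-1 its transient activity. Its values were 0.00448, 0 and 5.83 in cKO thymus, against 0.0204, 0.0263 and 2.56 in control thymus. They were 136, 0.824 and 26.7 in cKO liver, against 0, 36.9 and 0.747 in control liver. Whole reads recovered show how little this is: 8 and 2 reads in cKO and control thymus, and 251 and 43 reads in cKO and control liver, of which 220 came from cKO liver 1. Fos was thus readily seen in 3 libraries only, cKO liver 1, cKO liver 3 and control liver 2, and 7 libraries had no read. In cKO liver 2 and control liver 3 a level under the 3-read limit of their depth would not have been detectable.

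Fosb (chr7:19302696-19310051, minus strand), a FOS subunit that can take Fos's place in the dimer, was rarer still. It had 89 reads in all, 66 of them in control liver 1, where its value was 57.8, and 20 in cKO thymus 1, where it was 20.5. The other 10 libraries stood between 0 and 1.31 with at most 1 read each. These 2 libraries belong to different groups and were not the ones high in Fos.

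Fosl2 (chr5:32135801-32157842, plus strand) encodes FRA-2, a FOS relative without the strong activation domain of FOS. It had reads in every library, with values of 1025, 1722 and 1279.9 in cKO thymus, against 1201, 364 and 2053 in control thymus. In cKO liver it stood at 719, 494 and 1292, against 181, 663 and 1042 in control liver. The groups overlapped in every pairing, and the lowest value was 181 in control liver 1. Of the FOS genes, Fosl2 had the highest mean level per kb, 104, with 7.44 for Fos and 1.10 for Fosb.

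Jun (chr4:95049034-95052222, minus strand) encodes c-JUN, a partner of FOS and a target of the kinase JNK. It was low in every thymus library, with values of 1.03, 14 and 14.7 in cKO thymus, against 0.0212, 1.19 and 6.32 in control thymus. In liver it was 239, 299 and 130.0 in cKO cells, against 50.4, 288 and 212 in control cells. Each of the 6 liver libraries lay above each of the 6 thymus libraries, as was true of 0.888% of tested genes, while cKO and control cells overlapped within both tissues. The reads behind this were 585 in cKO liver and 428 in control liver, against 36 in cKO thymus and 6 in control thymus. The start of Jun is printed here because Jun is the member that separated the tissues. It is 300 bases of RefSeq's GRCm38.p6, chr4:95052173-95052472, read on the minus strand from 250 bases before the start to 50 after, and the capitals mark TGACATCA, the AP-1-like element through which Jun is known to act on its own gene.
Jun: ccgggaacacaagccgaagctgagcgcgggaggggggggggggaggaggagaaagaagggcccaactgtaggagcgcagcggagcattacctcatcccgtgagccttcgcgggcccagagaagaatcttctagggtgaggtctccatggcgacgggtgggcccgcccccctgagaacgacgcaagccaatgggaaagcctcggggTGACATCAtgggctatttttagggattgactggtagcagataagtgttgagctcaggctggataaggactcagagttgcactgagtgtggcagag
The element lies 45 to 38 bases before the start and occurs once, and 3.76% of 27025 mouse promoters of this length hold it on either strand.

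Junb (chr8:84974484-84978718, minus strand) encodes a JUN protein that activates poorly with some partners and drives T cell cytokine genes with others. It stood at 92.4, 194 and 268 in cKO thymus, against 4.51, 328 and 176 in control thymus. It stood at 107, 48.0 and 388 in cKO liver, against 11.3, 152 and 297 in control liver. Both values under 20 were in control libraries, control thymus 1 and control liver 1, and the groups overlapped in every pairing.

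Jund (chr8:70698949-70700616, plus strand) encodes the JUN protein that resting cells are known to express. Its values were 125, 83.2 and 219 in cKO thymus, against 38.1, 139.9 and 191 in control thymus. They were 37.4, 154 and 257 in cKO liver, against 124, 222 and 194 in control liver. No group stood apart, and Jund was detected in all 12 libraries.

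Egr1 (chr18:34859823-34864984, plus strand), a zinc finger factor induced through ERK and SRF, was the member with the smallest spread within groups. It stood at 3745, 5754 and 6887 in cKO thymus, against 1660.3, 1236 and 2679.9 in control thymus. In liver it stood at 3917, 1574 and 3129 in cKO cells, against 3428, 1990.2 and 2441 in control cells. The cKO thymus libraries lay above the control thymus libraries without overlap, as was true of 7.6% of tested genes, and the liver groups overlapped.

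**Figure D2:**
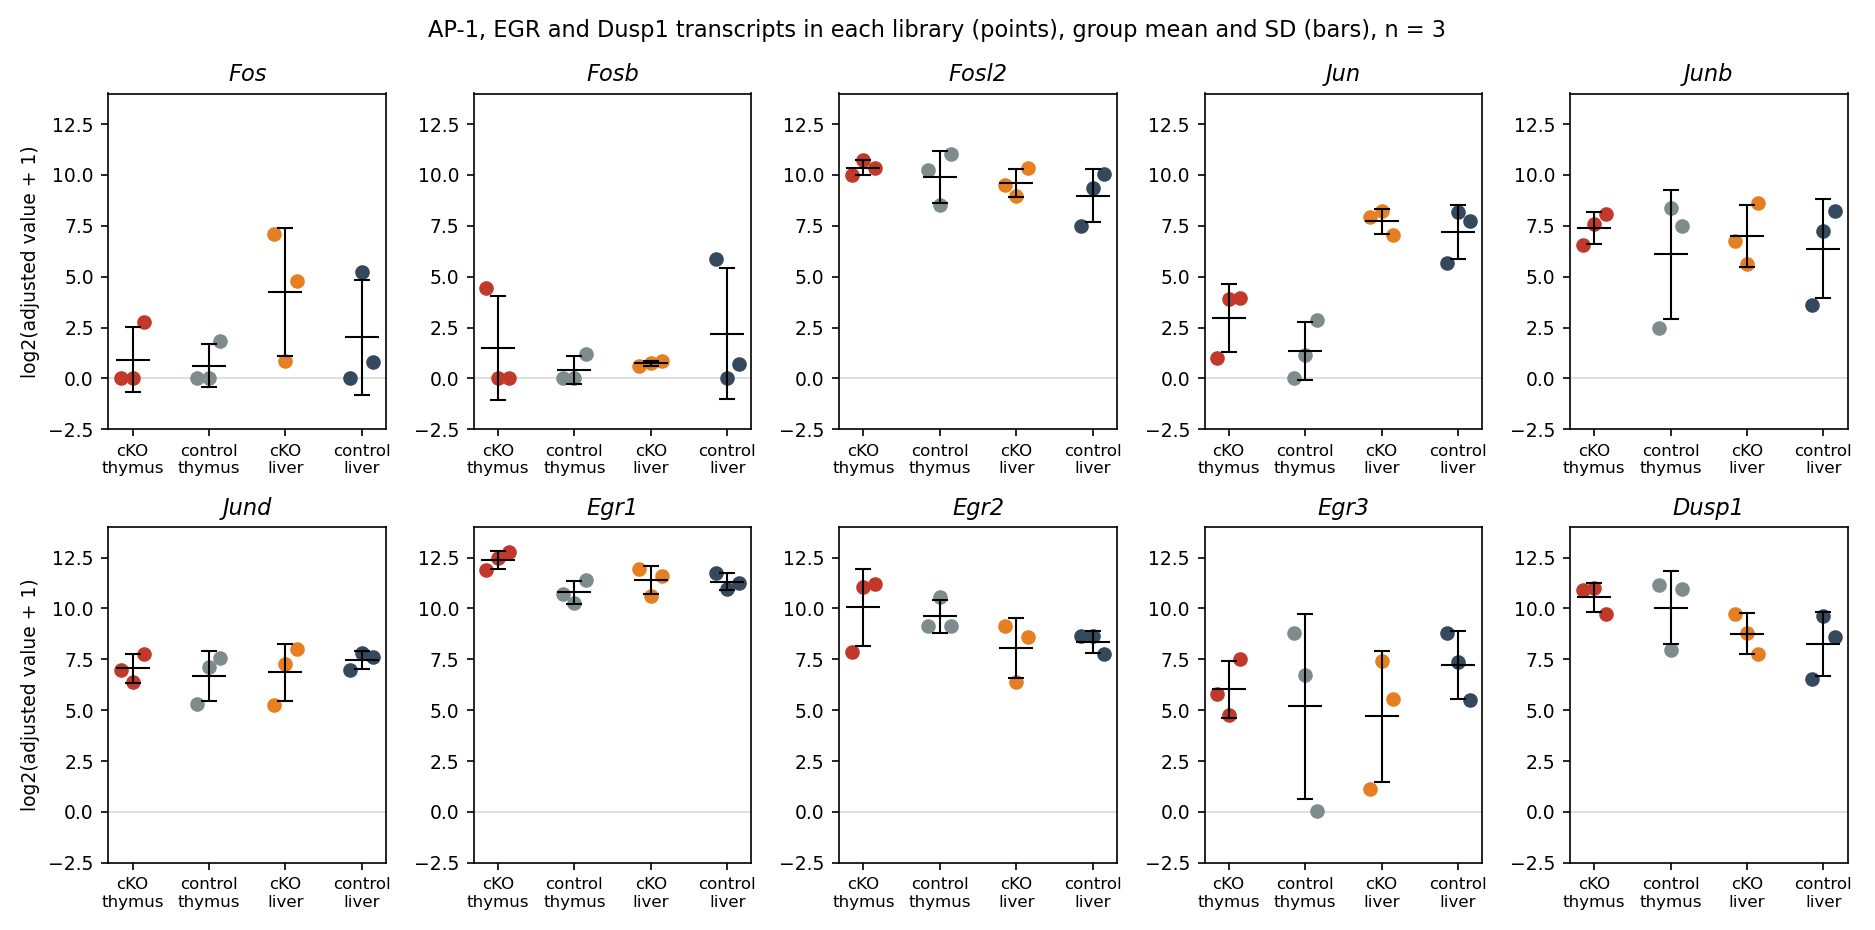
Log2(deposited value + 1) of each of the 10 genes in each library (points), with the mean and SD of each group of 3 as bars, in the order cKO thymus, control thymus, cKO liver and control liver. Jun has a deposited value of at most 14.7 in the 6 thymus libraries and at least 50.4 in the 6 liver libraries, and Egr1 is at least 3745 in cKO thymus and at most 2679.9 in control thymus.

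Egr2 (chr10:67535475-67542188, plus strand), the EGR factor that iNKT cells depend on in the thymus, varied more. Its values were 234, 2122 and 2388 in cKO thymus, against 563, 1494 and 567 in control thymus. They were 568, 81.3 and 381 in cKO liver, against 398, 404 and 213 in control liver. Within control cells the liver libraries lay below the thymus libraries, as they did for 5.83% of tested genes, and within cKO cells the tissues overlapped, with cKO thymus 1 low. Egr2 has 5 RefSeq start sites, and 4 of their windows hold a CArG box, the element bound by SRF. The one printed here is 1 of these 4, shown because Egr2 leaned to the thymus; the window is chr10:67537619-67537918 of GRCm38.p6, plus strand, with the CArG box in capitals.
Egr2: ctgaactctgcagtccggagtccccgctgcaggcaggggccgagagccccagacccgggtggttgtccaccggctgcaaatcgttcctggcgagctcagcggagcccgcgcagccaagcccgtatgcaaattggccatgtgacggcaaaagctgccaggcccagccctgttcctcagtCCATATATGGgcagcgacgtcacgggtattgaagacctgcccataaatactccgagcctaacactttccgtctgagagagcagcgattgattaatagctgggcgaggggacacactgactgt
The box lies 72 to 63 bases before this start, and 1.57% of the promoters hold a CArG box. That share counts 1 promoter per gene, while Egr2 was searched at all 5 starts. Its first listed window holds no CArG box, and some of the other windows overlap and hold the same box.

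Egr3 (chr14:70077203-70082614, plus strand), which acts beside Egr2 downstream of the antigen receptor, was the least even of the tested members. It stood at 55.4, 26.1 and 184 in cKO thymus, against 435, 105 and 0.0443 in control thymus. It stood at 1.16, 167 and 46.5 in cKO liver, against 448, 162 and 43.6 in control liver. Control thymus 3 had no read and control liver 1 had 515, so the range inside each control group was wider than the distance between any group means.

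Dusp1 (chr17:26505590-26562128, minus strand) encodes the dual-specificity phosphatase that switches off p38 and JNK. Its values were 1914, 2027 and 851 in cKO thymus, against 2286, 249.8 and 2010.5 in control thymus. They were 858, 441 and 214 in cKO liver, against 92.2, 792 and 383 in control liver. At least 851 was found in 5 of 6 thymus libraries and at most 792 in 5 of 6 liver libraries, with control thymus 2 the low exception in thymus. Its start is printed because it holds a complete cAMP response element; the window is chr17:26508423-26508722 of GRCm38.p6, minus strand, with TGACGTCA in capitals.
Dusp1: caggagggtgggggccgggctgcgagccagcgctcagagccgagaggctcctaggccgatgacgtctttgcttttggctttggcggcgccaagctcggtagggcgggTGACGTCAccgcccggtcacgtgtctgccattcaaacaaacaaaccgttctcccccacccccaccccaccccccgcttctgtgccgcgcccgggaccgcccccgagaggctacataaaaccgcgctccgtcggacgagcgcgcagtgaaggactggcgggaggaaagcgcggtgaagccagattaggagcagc
The element lies 143 to 136 bases before the start, and 1.88% of promoters hold it. The same search, on both strands, covered the AP-1 site TGACTCA (5.17% of promoters), the EGR site GCGNGGGCG (5.55%) and the ETS site CCGGAAGT (4.0%). The EGR site was found at Fosb and Fosl2, and the AP-1 and ETS sites at none of the 8 members that had an entry, which Egr1 and Egr3 did not. These are letters in a window, not bound sites.

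Cells that lost Ets1 were compared with control cells first in thymus. All comparisons share libraries with others, so their values are not independent. Egr1 had the largest difference relative to its error: its log2 fold change on the log2(value + 1) scale, cKO over control, was 1.58 ± 0.42 (SE, n = 3 each), a 3.00-fold difference with a 95% interval of 0.69 to 2.47. limma's unadjusted p was 0.0014 and its adjusted p over 13058 genes 0.1, so Egr1 did not pass, although all 3 cKO libraries were above all 3 control libraries. None of the 9 tested members passed, where 0.636% of tested genes did, 41 higher and 42 lower. The other 8 had adjusted p-values of 0.71 to 0.97. All 9 estimates were above 0, from 0.29 for Fos to 1.62 for Jun, with a median of 0.51 beside 0.24 for all tested genes. Rescaling by TMM took the all-gene median to 0.003, split the table's calls into 28 higher and 80 lower, and left the 9 estimates between 0.12 and 1.51; quantile normalization turned Jun and Jund below 0, and edgeR and DESeq2 on recovered reads turned Egr3 below 0. Egr1 passed when control thymus 3 was left out (1.89, adjusted p = 0.028 in limma), where 541 of 13058 genes did. With DESeq2 on recovered reads Egr1 passed too (1.52, adjusted p = 0.016), where 613 genes did, beside 83 in the fit above. Without control thymus 1 and 2, the libraries with the lowest Egr1, it was 0.98 with an adjusted p of 0.64, and the all-gene median was -0.006. These 2 libraries stood apart in other ways as well: 3528 and 2824 genes had no read in them, beside 966 to 2223 in the other 10, and mitochondrial ribosomal RNA took 30% and 34.2% of their values, beside 24.2% to 25.8% in the other thymus libraries. The part of this in the Egr1 result was not tested. The monocyte and dendritic cell markers (9 of 17 in the table) were also higher in cKO thymus. Their summed level was 2523 to 6511 there, against 169 to 722 in control thymus. Adgre1, C1qb and C1qc were at or near 0 in every thymus library. In cKO thymus 1, 2 and 3 the sum was mostly Itgax, at 6035, 2189 and 2494, where Egr1 stood at 3745, 5754 and 6887. In liver the sum was also higher in cKO cells, at 2239 to 3478 against 544 to 2027, and Egr1 differed there by 0.07 ± 0.42. Of the immature thymocyte markers (8 of 10 in the table) Themis and Ccr9 rose in cKO thymus, while the summed level overlapped, at 5786 to 7931 in cKO thymus and 3036 to 8569.9 in control thymus. Cd4, of the same list, moved the other way, with 91.4, 376 and 734 in cKO thymus, against 2579.5, 7393 and 985 in control thymus. It lay below control thymus in all 3 cKO libraries without passing there (-3.17 ± 0.79, limma adjusted p = 0.077), and fell in cKO cells over both tissues (-3.27 ± 0.56, adjusted p = 0.0034). Rag1, of that list too, stood at 486 in control thymus 3 and 163 in cKO thymus 3, against at most 2.79 in the other thymus libraries. Cd8a was 257 in control thymus 3, 185 in cKO thymus 3 and 132 in cKO thymus 1, and at most 0.922 in the others. Dntt was highest in cKO thymus 1, at 84.1. The part of cells that carry any of these markers in the Egr1 result was not tested. In these bulk libraries, fewer cells expressing a gene and less RNA of it per cell cannot be told apart.

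In liver no member passed, where 0.505% of tested genes did, and all 9 adjusted p-values were 1. Egr1 differed by 0.07 ± 0.42, with an interval of -0.82 to 0.96. The largest estimates, -2.52 ± 2.13 for Egr3 and 2.24 ± 1.84 for Fos, had intervals from -6.98 to 1.93 and from -1.63 to 6.10, wide enough to hold large changes in either direction. The median of the 9 was 0.51 beside 0.02 for all tested genes, and 6 of the 9 were above 0. Over both tissues Egr1 averaged 0.83 ± 0.30 (interval 0.20 to 1.46, limma adjusted p = 0.19), and no member passed, where 2.27% of genes did. The genotype effect of Egr1 in liver minus that in thymus was -1.51 ± 0.60 (unadjusted p = 0.021, adjusted p = 0.91 in limma). No member passed that test of the difference, where 0.00766% of genes, 1 gene, did, so these data do not show that the Egr1 effect differed between tissues.

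**Figure D3:**
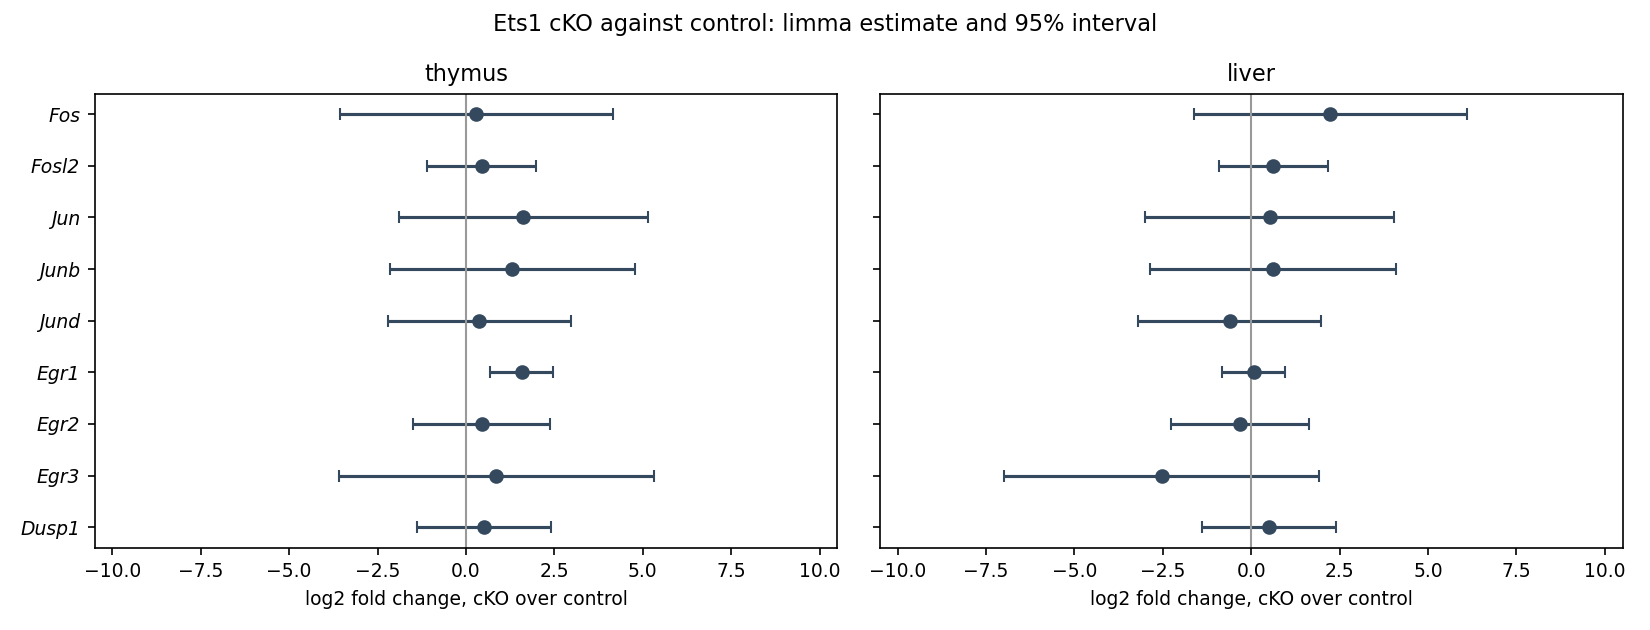
Log2 fold change on the log2(value + 1) scale, cKO over control, as points with 95% intervals from limma for the 9 tested genes, in thymus and in liver. The interval of Egr1 in thymus (1.58, from 0.69 to 2.47) lies clear of 0 and all others span it, and Egr1 does not pass adjustment over all genes.

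Liver was then compared with thymus. In control cells Jun was 5.85 ± 1.68 higher on the log2(value + 1) scale (interval 2.34 to 9.37, unadjusted p = 0.0025, limma adjusted p = 0.14), and in cKO cells 4.76 ± 1.68 higher (interval 1.24 to 8.27, unadjusted p = 0.011, adjusted p = 0.39). Neither passed, and no other member did, where 0.605% of tested genes passed in control cells and 0.222% in cKO cells. The liver libraries lay above the thymus libraries for Jun in both genotypes, as they did for 9.55% of genes in control cells and 8.81% in cKO cells. The average of these tissue differences was taken as a further comparison after the values had been seen. There Jun was 5.30 ± 1.19 higher in liver (39.5-fold on this scale, interval 2.82 to 7.79), with a limma adjusted p of 0.027, higher in 6 of 6 liver libraries than in any thymus library. It was the 1 member of 9 to pass, where 1.39% of tested genes did (0.72% higher); 0.888% of genes had all liver libraries above all thymus libraries. The estimate depends on the added 1, since thymic Jun is near 0: it was 3.63 with 10 added and 5.62 with 0.5.

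Jun's call changed with single libraries. In limma it was lost when cKO thymus 1 (adjusted p = 0.067), cKO liver 1 (0.076), cKO liver 2 (0.087), cKO liver 3 (0.069), control liver 2 (0.095) or control liver 3 (0.094) was left out, with estimates of 4.82 to 5.48. It was also lost without the 2 shallow libraries (5.04, adjusted p = 0.22), without control thymus 1 and 2 (4.54, adjusted p = 0.11) and with edgeR on recovered reads (5.31, adjusted p = 0.069), while DESeq2 on those reads gave 5.37 with an adjusted p of 9.6e-06. The estimate was above 0 in all 27 alternatives. Hepatocyte markers (7 of 10 in the table) moved with tissue too, summing to 802 to 1829 in cKO liver and 1383 to 1813 in control liver, against 22.6 to 435 in cKO thymus and 110.0 to 868 in control thymus. Of the 7, Alb, Apob and Ttr rose in liver over both genotypes, where 1.39% of tested genes passed. Trf pointed the other way in control cells, with 43.5, 7.69 and 19.3 in liver, against 109.8, 598 and 205 in thymus. In cKO cells Trf stood at 0, 7.91 and 21.5 in liver, against 4.11, 0 and 61.1 in thymus. Lyz2, of the monocyte and macrophage list, rose as well, with values of 300.2, 47.3 and 63.7 in cKO liver and 18.2, 8.55 and 404 in control liver, against at most 3.82 in any thymus library. The summed level of that list overlapped between tissues, at 2239 to 3478 in cKO liver and 544 to 2027 in control liver, against 2523 to 6511 in cKO thymus and 169 to 722 in control thymus. Themis and Ccr9, of the immature thymocyte list, were also higher in liver over both genotypes. Rag1 and Dntt of that list were at most 0.905 in any liver library, while Cd8b1 reached 189 in cKO liver 2 and Cd8a 1116 in control liver 1. Whether higher Themis and Ccr9 came from immature thymocytes was not tested. The part of cells that carry any of these markers in the Jun result was not tested. Junos, an antisense gene whose exons overlap Jun, stood at 0, 0.681 and 0 in cKO liver and 17.4, 31.0 and 36.4 in control liver, against at most 5.86 in thymus. No source used here says whether the counting used strand, so reads of Jun and Junos cannot be told apart with certainty. In cKO liver, where Junos was at or near 0, Jun stood at 130.0 to 299.

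Dusp1 and Egr2 leaned the other way without passing. Over both genotypes Dusp1 was -1.78 ± 0.64 (interval -3.12 to -0.44, limma adjusted p = 0.19) and Egr2 -1.64 ± 0.66 (interval -3.01 to -0.27, adjusted p = 0.25). Both passed with DESeq2 on recovered reads (Egr2 -1.78, adjusted p = 0.043, and Dusp1 -1.76, adjusted p = 0.048), where 601 genes did. Dusp1 also passed in limma without control thymus 2 (-2.30, adjusted p = 0.04), where 223 genes did, beside 182 with all libraries. In control cells Egr2 was lower in all 3 liver libraries (-1.26 ± 0.93, adjusted p = 0.6 in limma), and Dusp1 was -1.78 ± 0.90 (adjusted p = 0.42). In cKO cells Egr2 was -2.02 ± 0.93 (unadjusted p = 0.042, adjusted p = 0.63), Egr1 -0.98 ± 0.42 (unadjusted p = 0.032, adjusted p = 0.59) and Dusp1 -1.78 ± 0.90 (adjusted p = 0.7). Fos averaged 2.36 ± 1.30 over both genotypes (adjusted p = 0.43). Junb, Jund, Egr1 and Egr3 lay within 0.34 of 0 in that comparison, with intervals reaching from -2.53 to 2.38 for Junb and from -2.81 to 3.49 for Egr3. Exons of Dusp1 and Junb also overlap exons of Ergic1 and Prdx2 on the opposite strand, which leaves their counts uncertain in the same way. So do exons of Jund with those of Gm11175, an antisense gene that is not in the deposited table.

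**Figure D4:**
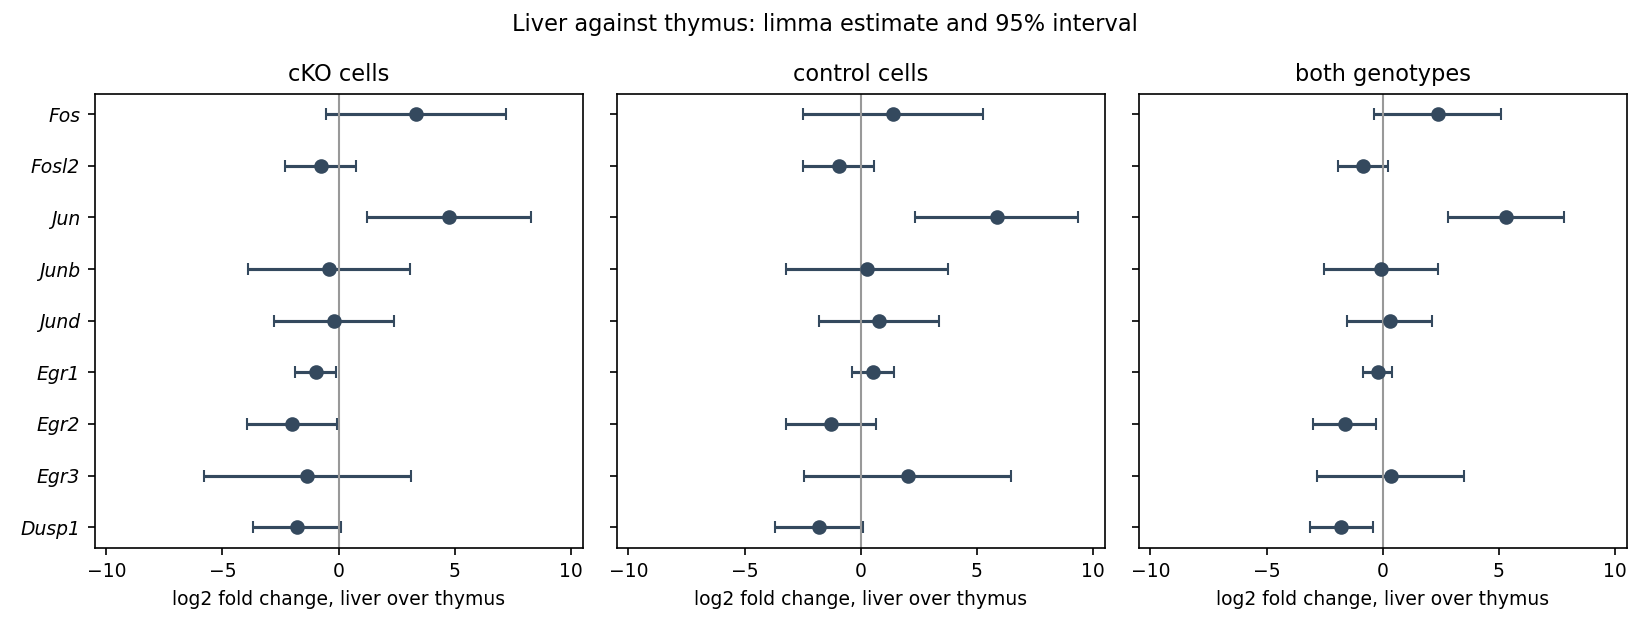
Log2 fold change on the log2(value + 1) scale, liver over thymus, as points with 95% intervals from limma for the 9 tested genes, in cKO cells, in control cells and averaged over both genotypes. Jun is at 4.76 in cKO cells, 5.85 in control cells and 5.30 over both, and Dusp1 is at -1.78 in each.

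The spread between libraries of a group bore on which members could be resolved. The standard deviation within groups on the log2(value + 1) scale was 0.54 for Egr1, 1 for Fosl2, 1.02 for Jund, 1.29 for Egr2, 1.33 for Jun, 1.34 for Dusp1, 2.17 for Junb, 2.32 for Fos and 3.00 for Egr3, against a median of 1.33 over tested genes. Set against genes of the same level decile, Egr3 was among the more variable (percentile 91.0), as were Dusp1 (84.6), Fosl2 (83.4) and Egr2 (82.4). Jun (6.97) and Jund (13.4) were among the less variable, and Egr1 lay at percentile 42.0. Fos and Egr1 are the members that cells are known to induce fastest. Egr1 did not exceed the typical spread of genes at its level. Fos lay at percentile 48.5 of the lowest level decile, with no read in most libraries. Its spread depends on detection and the added 1, so it cannot speak to induction.

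**Figure D5:**
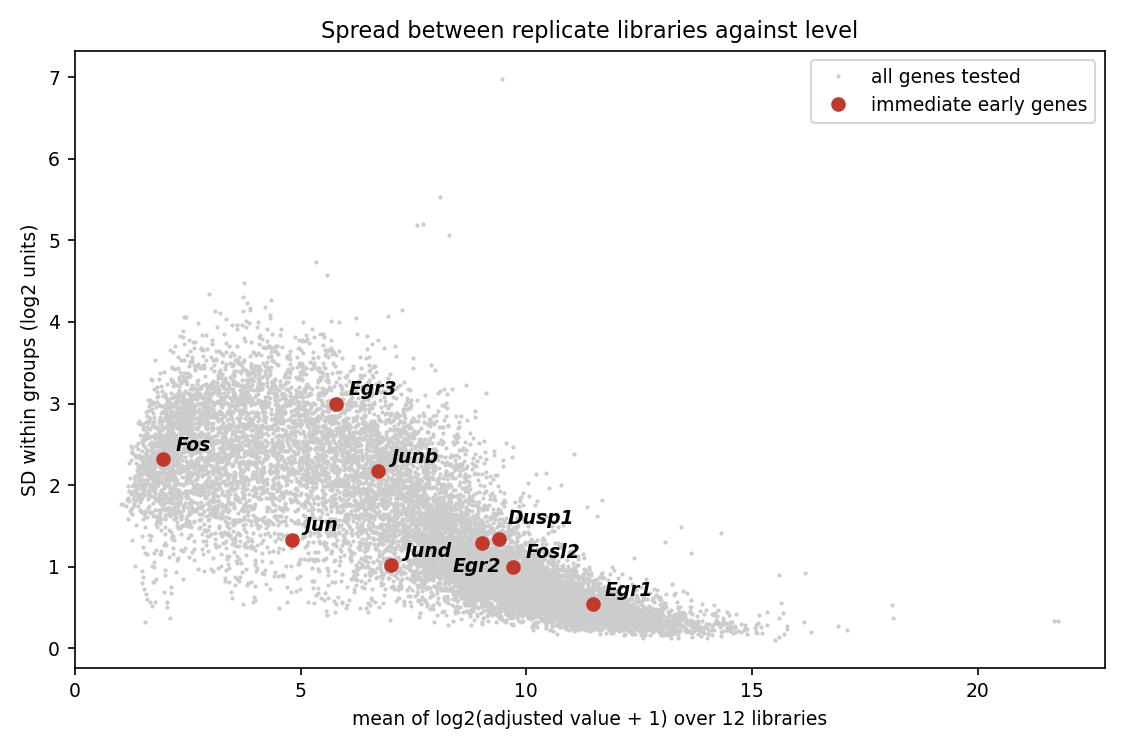
Standard deviation within groups against the mean over 12 libraries, both on the log2(value + 1) scale, with the 9 tested members as large points over all tested genes as small ones. Of the members Egr3 has the largest spread at 3.00 and Egr1 the smallest at 0.54.

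The members did not move as a block across the 12 libraries. The closest pair was Fosl2 and Dusp1, with a Pearson r of 0.75 over 12 libraries and 0.65 after removing group means. Jun followed with Fos at 0.59 (0.39 within groups), Junb with Jund at 0.58 (0.64) and Egr1 with Egr2 at 0.44 (0.54). Egr3 was negatively related to 7 of the other 8, down to -0.48 with Fosl2. Libraries share their depth and scaling in all of these, and the values are a description. The named genes whose pattern was most like the mean of the scaled members, over the same 12 libraries, were Tdrp (r = 0.88), Gcnt7 (0.87), Cluap1 (0.86), Wdr86 (0.86), Spns3 (0.85), Creb3l1 (0.85), Uhmk1 (0.82), Nadsyn1 (0.82), Nek8 (0.81) and Tab1 (0.81).

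Of 34 other immediate early genes tested, Klf6, a zinc finger factor, rose in cKO thymus, with 10954, 7147 and 9555 in cKO libraries, against 4109, 3403 and 4083 in control libraries (1.24 ± 0.27, limma adjusted p = 0.043), and none fell. That is 1 of 34, where 0.636% of tested genes passed, and the list's median was -0.02 beside 0.24 for all genes. The Klf6 call held in 10 of 29 alternatives only, being lost when any single library other than control thymus 3 was left out (adjusted p of 0.054 to 0.19). Calls of higher genes in cKO thymus depend on the fit in general: limma called 0 genes higher and 4 lower there without a variance trend (1526 at an unadjusted p under 0.05), and 0 when only the 6 thymus libraries were fitted (952 at an unadjusted p under 0.05), while edgeR called 51 and DESeq2 613 genes in either direction on recovered reads. In liver Klf6 was -0.10 ± 0.27 (adjusted p = 1), and none of the 34 passed, where 0.505% of tested genes did. Between tissues over both genotypes 2 of the 34 rose and 1 fell, where 1.39% of tested genes passed, and the list's median was 0.12 beside 0.20. Ppp1r15a, a stress-induced phosphatase subunit, rose in liver like Jun, with 134, 66.0 and 89.6 in cKO liver and 42.6, 71.3 and 31.1 in control liver, against at most 6.17 in thymus (4.66 ± 1.14, adjusted p = 0.048), a call that held in 6 of 27 alternatives and was lost when any single library other than control thymus 3 was left out. Trib1, a pseudokinase gene, had no read in any thymus library. In liver it stood at 13.4, 0.955 and 17.2 in cKO cells, against 373, 58.3 and 103 in control cells, with no read in cKO liver 2 and 428 of its 555 reads in control liver 1. Its mean of 94.2 in the 6 liver libraries was at least 30.3-fold higher than the thymus limit of 3 reads per library, and at least 12.4-fold higher without control liver 1. limma's adjusted p was 0.025, below the threshold in 17 of 27 alternatives. Rgs2, a brake on G protein signalling, fell in liver (-3.78 ± 0.72, adjusted p = 0.0093). Nr4a1, the usual reporter of antigen receptor signalling, was 4.36 ± 1.89 in cKO thymus over control thymus and did not pass (adjusted p = 0.32).

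Among 13 tested MAP kinase phosphatases and ERK feedback genes beside Dusp1, none passed in thymus or in liver, where 0.636% and 0.505% of tested genes did. Over both tissues Errfi1, which restrains the EGF receptor, rose in cKO cells (3.61 ± 0.72, limma adjusted p = 0.01) and Dusp7, an ERK phosphatase, fell (-2.49 ± 0.57, adjusted p = 0.023, below the threshold in 19 of 27 alternatives). Dusp2, which like Dusp1 is a nuclear MAP kinase phosphatase, fell in liver against thymus, with 537, 781 and 610.4 in cKO liver and 826, 942 and 570.5 in control liver, against 4329.8, 2106 and 2831 in cKO thymus and 2606, 8371 and 1289 in control thymus (-2.11 ± 0.41, adjusted p = 0.011). Spry2, an inhibitor of RAS-ERK signalling, fell likewise (-2.23 ± 0.42, adjusted p = 0.0094). Dusp1 pointed the same way with -1.78 ± 0.64 and did not pass. None of 23 upstream kinases and SRF or TCF factors passed in any of the 7 comparisons, where 0.00766% to 2.27% of tested genes did. The list's median was -0.02 in thymus and 0.04 in liver for the genotype, beside 0.24 and 0.02 for all genes.

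Of 14 other AP-1 and related bZIP genes tested, Bach2, a repressor that competes for AP-1 sites, rose in cKO cells over both tissues (1.71 ± 0.41, limma adjusted p = 0.032, below the threshold in 15 of 27 alternatives), where 2.27% of tested genes passed. None of the 14 passed for the genotype within either tissue, where 0.636% of tested genes did in thymus and 0.505% in liver. Their median in thymus was 1.57 beside 0.24 for all genes, and -0.07 beside 0.02 in liver. Among 16 EGR corepressors and EGR targets of T cells, Dgka, which lowers diacylglycerol and so RAS-ERK signalling, fell in cKO thymus to 231, 516 and 668, against 7373, 5567 and 7679.9 in control thymus (-3.98 ± 0.46, adjusted p = 4e-04). That call held in 26 of 29 alternatives and was lost when only the 6 thymus libraries were fitted (adjusted p = 0.35). Tnfrsf9, which encodes the costimulatory receptor 4-1BB, rose to 4483, 5084 and 3991, against 219.8, 753 and 1071 (3.00 ± 0.58, adjusted p = 0.023). Its thymic call held in 19 of 29 alternatives and was lost without cKO thymus 1 (0.093), 2 (0.082) or 3 (0.079) or control thymus 1 (0.053), while over both tissues Tnfrsf9 passed in all 27. Nab2, an EGR corepressor that EGR1 is known to induce, was 1.28 ± 0.65 and did not pass (adjusted p = 0.4). The list's median in thymus was -0.21 beside 0.24. Il2rb, a chain of the IL-2 and IL-15 receptors, rose in control liver against control thymus, with 61549, 71229.7 and 67939.9 in control liver, against 38659, 36385 and 40797 in control thymus (0.79 ± 0.15, adjusted p = 0.016, below the threshold in 19 of 29 alternatives).

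Of 15 tested genes that depend on AP-1 in T cells, Gzmb, the cytotoxic protease granzyme B, rose in cKO cells in thymus (1.09 ± 0.23, limma adjusted p = 0.039) and in liver (2.85 ± 0.23, adjusted p = 1.5e-06). The thymic call held in 13 of 29 alternatives (adjusted p up to 0.8), and the liver call in all 29. In liver the chemokine gene Xcl1 fell (-2.54 ± 0.42, adjusted p = 0.0062), as did Mmp9, a protease that neutrophils also express, with at most 1.16 in cKO liver, against 3429.5, 3033 and 3585 in control liver (adjusted p = 0.0014). Xcl1 was lost without cKO liver 2 (0.06), and both were lost without the 2 shallow libraries (0.22 for Xcl1 and 0.064 for Mmp9). B cell and endothelial or stromal marker sums were also lower in cKO liver than in control liver, without overlap, and their part in these calls was not tested. The list's median was 0.67 in thymus beside 0.24, and -0.19 in liver beside 0.02. Icos, a costimulatory receptor, fell in liver against thymus over both genotypes (-0.84 ± 0.19, adjusted p = 0.031, below the threshold in 14 of 27 alternatives). Mmp9 rose in the same comparison (5.50 ± 1.10, adjusted p = 0.014), through control liver alone, since cKO liver and thymus stood at no more than 2.55. The list's median there was 2.03 beside 0.20. None of 17 tested heat shock genes passed in any comparison, where 0.00766% to 2.27% of tested genes did. The share of heat shock genes in all values was 0.409% to 0.603% in cKO liver and 0.348% to 0.421% in control liver. It was 0.332% to 0.423% in cKO thymus and 0.238% to 0.366% in control thymus.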

How the data were processed

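RNA was sequenced from 12 libraries of sorted iNKT1 cells, 4 groups of 3. Per the labels' protocols RNA was isolated with RNeasy kits and libraries were made with the Ovation Ultralow system. Per the submitters' processing notes the tools were HTSeq 0.6.1, STAR, TopHat2 2.1.0, DESeq2 and Trimmomatic 0.33, of no stated role, and the build was mm10. The authors deposited 1 table of 14004 genes by 12 libraries, a signal adjusted for library size that is not whole numbers; how it was adjusted is inferred. A quantile adjustment of whole reads under a negative binomial (fitted dispersion 1.42) matched it, and its inversion placed 93.8% of values within 0.1 of a whole read, 89.3% to 99.5% per library. Recovered reads gave depths, low counts and the reads for edgeR and DESeq2. In all libraries the recovered reads rest on the inversion alone. A value of 0 reads can be listed slightly above 0.

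The tests, limma 3.58.1 (R 4.3.3) on log2(value + 1), covered the 13058 genes that reached 10 in 3 or more libraries, with 1 mean per group over all 12 libraries, a variance trend and no covariate. P-values were two-sided, adjusted by the Benjamini-Hochberg method over all tested genes, with a threshold of 0.05. Fold changes on this scale understate changes of low genes. Since the values are not counts, edgeR 4.0.16 and DESeq2 1.42.0 served as alternatives. The limma function was tried on simulated data, for cKO thymus against control thymus only. The edgeR and DESeq2 functions and the recovery of reads were not tried that way. Symbols and exon lengths came from GENCODE on GRCm38, the assembly mm10 names; 95.4% of identifiers matched. The members, the other lists (which share genes such as Tnf and Fasl) and the cell markers were chosen with earlier results of these data known. The members are all described; other lists are described by their counts, with each gene that passed in at least 1 comparison by name. Nr4a1 and Nab2 were named after their values were seen.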

Additional observations from a re-analysis of the deposited data

How the results depend on the processing

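Over all alternatives no called member changed direction. In cKO against control thymus 1 member, Egr1, passed with DESeq2, and 0 to 1 passed when single libraries were left out. With DESeq2 1 member, Jun, passed in control liver against control thymus and 1, again Jun, in cKO liver against cKO thymus; without a variance trend 1, Jun, passed in control liver against control thymus (5.85, adjusted p = 0.044 in limma). In liver against thymus over both genotypes, a comparison added after seeing the data, 1 passed as reported, 0 without the 2 shallow libraries, 0 without control thymus libraries 1 and 2, 0 with edgeR and 3 with DESeq2 (Jun, Egr2 and Dusp1), and 0 to 2 when single libraries were left out. DESeq2 also called more genes over the whole table. It called 613 in thymus, 478 between control tissues, 263 between cKO tissues and 601 for tissue over both genotypes. The fit as reported called 83, 79, 29 and 182 in these comparisons. The causes were not tested. Estimates that never passed did change sign: in cKO against control thymus 8 of 9 members did so under at least 1 alternative, Egr1 not being among them (0.98 to 1.89), and in liver 7 of 9. Counts over the whole table moved more. Calls in thymus numbered 83, with 21 to 541 when single libraries were left out and 0 to 613 under the other alternatives. In liver they numbered 66 (21 to 126, and 7 to 620), over both tissues 297 (170 to 546, and 77 to 753), for the difference of genotype effects 1 (1 to 9, and 1 to 112), for control tissues 79 (27 to 395, and 12 to 478), for cKO tissues 29 (3 to 44, and 3 to 263), and for tissue over both genotypes 182 (97 to 307, and 55 to 601). Replicate numbers are shared between groups. Deviations from group means had r from -0.1 to 0.08 over 18 same-numbered pairs of libraries, against -0.11 to 0.19 over 36 other pairs. Between cKO liver and control liver the same-numbered pairs lay apart from the others, at 0.07 to 0.08 against -0.06 to -0.01. In thymus the same comparison overlapped, at -0.1 to 0.04 against -0.11 to 0.19. With only the 6 liver libraries fitted, a replicate block raised the table's calls from 292 to 420 and left 0 members passing. Whether the numbers mark pairs was not tested. A replicate block left the members' counts at 0 in thymus and liver and at 1 for tissue over both genotypes (Jun, adjusted p = 0.032), and Egr1 in thymus at 1.58 (adjusted p = 0.095). Depth limits Fos, Fosb, Jun in thymus and Egr3, and a level under 20.0 in cKO liver 2 or 18.2 in control liver 3 is within 3 reads.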

Other observations

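Several marker lists differed between groups, and their part in the results was not tested. Of the endothelial and stromal markers 4 of 17 were in the table, and they summed to 1.16 to 90.3 in cKO liver and 596 to 980.4 in control liver, against 0.923 to 68.5 in cKO thymus and 74.1 to 302 in control thymus, mostly Pecam1. B cell markers (7 of 10 in the table) summed to 1106 to 2084 in cKO liver and 5478 to 8191 in control liver, against 1518 to 5704 in cKO thymus and 3157 to 5654 in control thymus. Most of that sum was Ighm, which fell in cKO liver (-2.18 ± 0.43, limma adjusted p = 0.024). Of the neutrophil markers 1 of 11 was in the table, Mmp9. Erythroid and platelet markers (7 of 10) summed to at most 675 in any library, and none passed in any comparison, where 0.00766% to 2.27% of tested genes did.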
